A study of Mus musculus with 10 samples.

Results

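The genes described were 10 transcription regulators of the immediate-early class, chosen by name: Fos, Fosb, Fosl2, Jun, Junb, Jund, Atf3, Egr1, Ier2 and Nr4a1. They were 10 of the 28185 genes in the deposited table, and all 10 passed the filter of a mean of at least 10 normalized counts, which left 11549 genes for testing. A normalized count is the number of reads of a gene divided by the size factor of its library. Ly6G+ cells, which the study took as neutrophils, were enriched with magnetic beads at day 3 after left coronary artery ligation in adult male C57Bl/6J mice with no engineered allele. The groups were cardiac cells from mice with infarction alone (MI, libraries 13, 19 and 20), cardiac cells from infarcted mice that received mesenchymal stromal cells (MI + MSC, libraries 15, 17 and 18), and blood cells of infarcted mice without (Blood, libraries 21 and 22) or with these cells (Blood + MSC, libraries 23 and 24). The MSCs were syngeneic bone marrow cells injected under the skin shortly after ligation, so that both tissues were sampled away from the injection site. Every group carried the infarct, and there was no uninfarcted group. The batch label repeated the group name, so batch and group cannot be told apart. The labels do not say which mouse a library came from, and p-values measure only the spread between these libraries.

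AP-1 is a dimer that a FOS protein (Fos, Fosb, Fosl2) forms with a JUN protein (Jun, Junb, Jund), or that JUN proteins form with each other or with an ATF protein such as Atf3. Most of these genes are transcribed within minutes of a stimulus, without new protein synthesis, when MAP kinases act on factors already bound at their promoters, and their RNAs are short-lived. In neutrophils and other myeloid cells they are known to respond to cytokines, microbial products, adhesion and mechanical or thermal stress. Jund stands somewhat apart in the family because many resting cells already express it.

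All 10 are protein-coding genes, placed here on GRCm39 with the GENCODE annotation. Fos lies at chr12:85520658-85524047 (+ strand), Fosb at chr7:19036621-19043976 (− strand) and Fosl2 at chr5:32292707-32315186 (+ strand). Jun lies at chr4:94937271-94940459 (− strand), Junb at chr8:85701113-85705359 (− strand) and Jund at chr8:71151599-71153265 (+ strand). Atf3 lies at chr1:190902493-190950241 (− strand), Ier2 at chr8:85387960-85389483 (− strand) and Nr4a1 at chr15:101151980-101172681 (+ strand). The position and promoter of Egr1 are not shown here. Genes on the opposite strand overlap Fosl2, Jun, Junb, Jund, Atf3 and Nr4a1, whose reads lie on the other strand, and the study states that it counted by strand. Nr4a1 is the one member with a gene on its own strand (Gm56721) overlapping its span in this annotation. The study does not state how reads that overlap such a pair were counted.

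The 250 bases before the annotated start are shown for 4 members: Fosb and Jund, which were called between MI and Blood in opposite directions, Ier2, which shared a motif with Jund, and Fos, the founding member of the family, which was not called. They were read 5′ to 3′ on the gene's strand from the GRCm39 genome, at chr12:85520408-85520657 for Fos (+ strand), chr7:19043977-19044226 for Fosb (− strand), chr8:71151349-71151598 for Jund (+ strand) and chr8:85389484-85389733 for Ier2 (− strand). Capitals mark a match to 1 of 5 motifs searched on both strands: the AP-1 site TGACTCA, the cyclic AMP response element TGACGTCA, the CArG box bound by serum response factor, the Egr site GCGTGGGCG and the TATA box TATAAA.
Fos: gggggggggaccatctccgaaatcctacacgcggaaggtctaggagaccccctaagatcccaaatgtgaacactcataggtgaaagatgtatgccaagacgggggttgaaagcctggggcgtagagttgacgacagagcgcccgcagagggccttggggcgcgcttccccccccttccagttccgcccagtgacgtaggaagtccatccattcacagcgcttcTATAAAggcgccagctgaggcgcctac
Fosb: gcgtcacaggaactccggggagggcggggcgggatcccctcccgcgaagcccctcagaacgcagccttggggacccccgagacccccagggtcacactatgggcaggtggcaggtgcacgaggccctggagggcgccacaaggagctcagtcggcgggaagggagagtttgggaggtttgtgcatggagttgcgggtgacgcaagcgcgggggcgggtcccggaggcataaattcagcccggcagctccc
Jund: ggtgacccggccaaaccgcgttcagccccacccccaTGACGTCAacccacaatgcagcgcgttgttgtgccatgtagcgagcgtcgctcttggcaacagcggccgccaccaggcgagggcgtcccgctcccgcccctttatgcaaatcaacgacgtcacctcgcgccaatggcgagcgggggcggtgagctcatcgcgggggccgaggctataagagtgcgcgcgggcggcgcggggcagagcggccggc
Ier2: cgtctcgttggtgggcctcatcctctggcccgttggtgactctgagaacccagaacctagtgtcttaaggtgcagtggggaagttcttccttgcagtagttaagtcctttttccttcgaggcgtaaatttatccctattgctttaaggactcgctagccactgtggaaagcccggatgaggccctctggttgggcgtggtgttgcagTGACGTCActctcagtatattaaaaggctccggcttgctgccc
Jund held a cyclic AMP response element that began 214 bases before the start, and Ier2 held one 43 bases before it. They were the 2 members with this motif, which 1.70% of the windows of 21757 protein-coding genes held. A TATA box began 27 bases before the start of Fos, and Junb and Nr4a1 also held the TATAAA letters (11.9% of all windows). In none of the 10 windows were the letters of the AP-1 site (4.03% of all windows), the CArG box (1.40%) or the Egr site (0.547%) found, and the Fosb window held no match to any of the 5 motifs. A match or its absence describes these letters in this window alone.

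Several facts of the libraries bear on all values below. Recovered reads ranged from 148594 (MI 13) to 8602711 (Blood + MSC 24), a 57.9-fold range, and the worth of 1 read was 8.40 normalized counts for MI 13, 7.07 for Blood 21 and at most 2.30 elsewhere. The fewest reads behind any member value were 9 for Ier2 in MI 13 and 10 for Fosb in Blood 21. Ly6g, the gene of the antigen used for enrichment, had 4.75 to 26.9 normalized counts across heart libraries but 41.2 to 645 across blood libraries. The 12 neutrophil markers together summed to between 2547 and 13564 for heart libraries, to between 16764 and 53435 for blood libraries, and 10 of them were called lower in MI than in Blood. All 8 cardiomyocyte markers, 6 of 8 endothelial, 4 of 5 mural and 3 of 6 fibroblast markers were called higher in MI than in Blood, and the cardiomyocyte sum was 3138 to 24250 in the heart against 14.3 to 63.6 in blood. RNA of other heart cells was thus measured in the heart libraries, and in such bulk samples fewer cells of a type and less RNA per cell cannot be told apart. Reads over 676 olfactory receptor genes, which immune cells do not use, served as a measure of background: their rate per kilobase times the length of each member came to between 0.00396% and 11.6% of the reads of that member, the highest being Nr4a1 in MI 13. In no other library did it pass 2.36%.

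Per kilobase of exon, Junb and Fos were the most abundant members in every group. In MI, Junb was at 1093 ± 433 (SD, n = 3) and Fos at 882 ± 264 normalized counts per kilobase, which did not differ beyond their spread. Jund (314 ± 66.98) and Jun (295 ± 153) followed at levels that also overlapped, and Atf3 (120 ± 40.1), Fosl2 (115 ± 29.1), Ier2 (100.2 ± 46.7), Egr1 (81.8 ± 57.2), Fosb (61.4 ± 27.6) and Nr4a1 (39.4 ± 11.4) formed a lower range in which no neighbour stood clear of the next by more than the larger SD. MI + MSC kept Junb (2814 ± 1214) and Fos (1545 ± 579) on top, here separated by more than the SD, with Jun (536 ± 207) and Jund (489 ± 116) next. In Blood the third place belonged to Jund, at 904 ± 340 per kilobase (n = 2), close to Fos at 976 ± 620 and clear of Ier2 at 245 ± 139. Fosb was the least abundant in blood, at 7.53 ± 5.35 per kilobase in Blood and 7.43 ± 4.07 in Blood + MSC, below Nr4a1 (12.96 ± 10.997 and 31.3 ± 31.9) by less than the spread. The lowest place in MI + MSC was also that of Fosb (68.4 ± 13.8), there below Nr4a1 (110 ± 40.5) by more than the larger SD. The plot of member levels shows each library on a log axis.

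**Figure D1:**
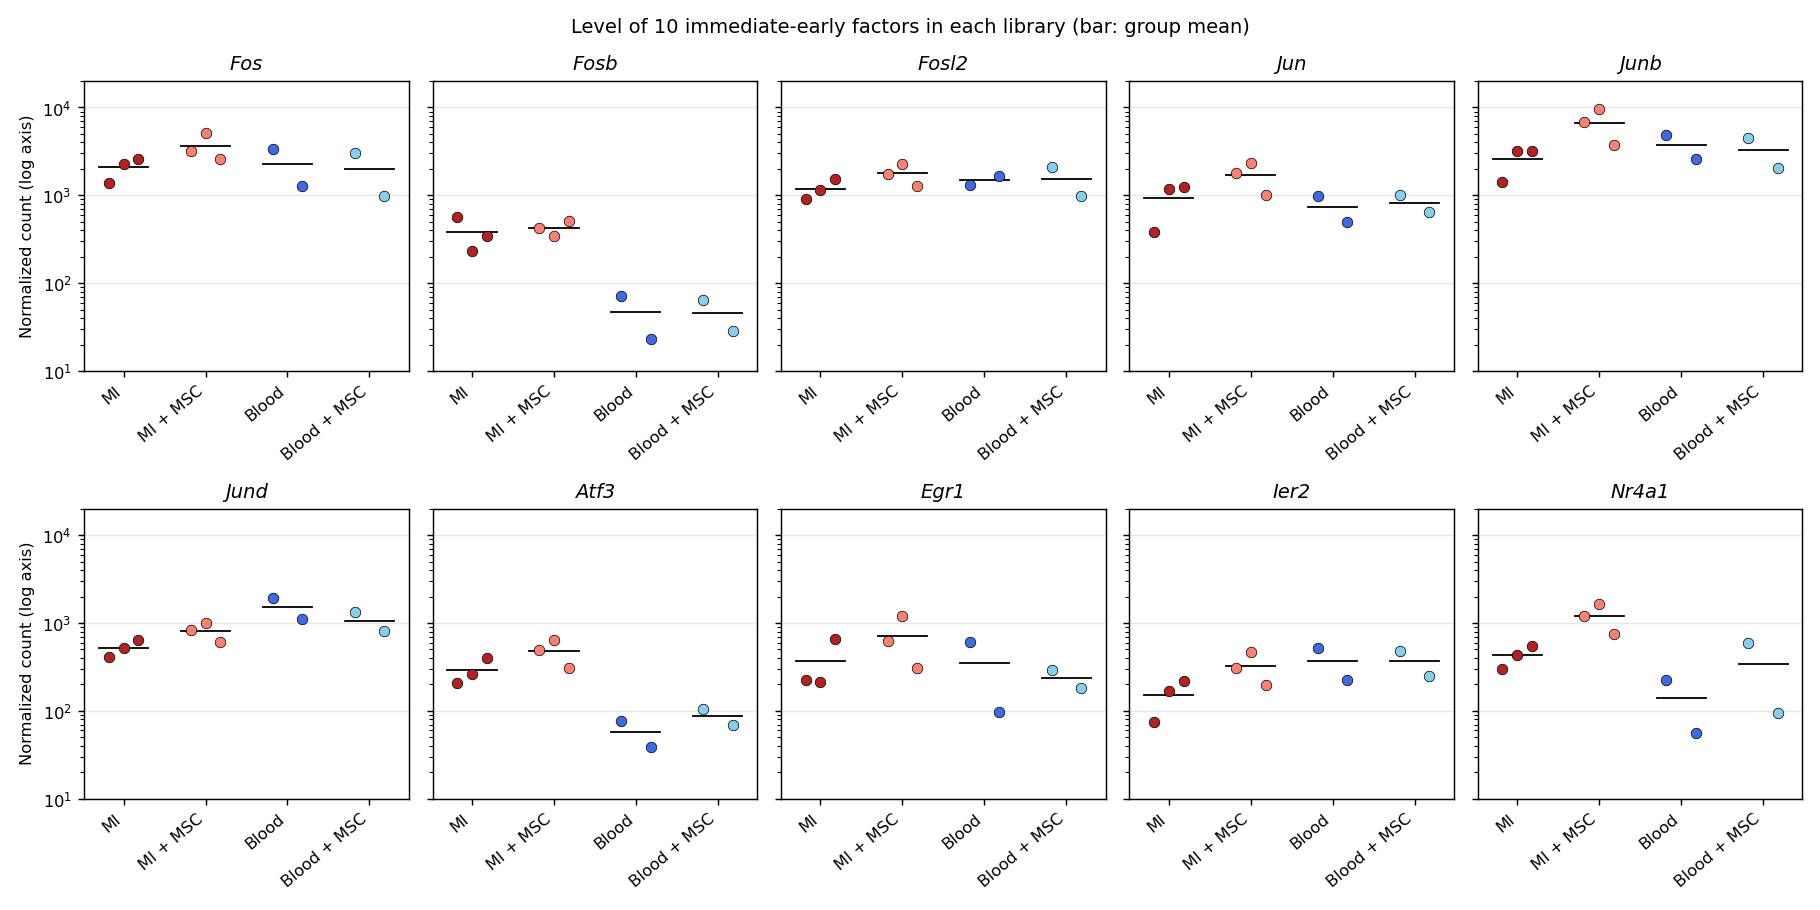
Normalized counts (log axis) of the 10 genes in the 10 libraries; each point is 1 library, coloured by group, and the bar is the group mean. Fosb and Atf3 stand apart between heart and blood, with every heart library at 210.1 or more and every blood library at 105 or less.

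The heart was compared with blood to ask how these genes differ between bead-enriched cells of the infarcted heart and of blood. Fosb and Atf3 were higher in the heart with and without MSC, and Jund was lower in the heart without MSC. Of the 10 members, 2 were called higher in MI than in Blood, where a call is a limma adjusted p-value under 0.05 with a log2 fold change of at least 0.5 in size, against 21.2% of all tested genes, and 1 was called lower, against 13.5%. In the comparison of MI + MSC with Blood + MSC, 2 were called higher (8.23% of all genes) and 0 lower (5.85%). There, 3 members had an unadjusted limma p-value under 0.05 in either direction, against 31.2% of all genes. In MI against Blood the shares of members were thus near the background in both directions. Heart and blood libraries without overlap were also common among the 11549 tested genes. Every MI library lay above every Blood library for 3 members and for 3650 of all tested genes. Every MI library lay below every Blood library for 2 members and for 2722 genes. With MSC, 5 members and 3908 genes lay above without overlap, and 0 members and 3429 genes lay below. The median log2 fold change of the members was 0.10 in MI against Blood (all genes 0.15) and 1.02 in MI + MSC against Blood + MSC (all genes 0.09). Single libraries set these medians: the first was 0.70 without Blood 21, −0.49 without Blood 22, 0.43 without MI 13, −0.08 without MI 19 and −0.18 without MI 20, and the second was 0.58 without Blood + MSC 24 and 1.67 without Blood + MSC 23. Fold changes are on the log2(normalized count + 2) scale, without subtraction of the median of all genes, and depend on the scaling between libraries. Scaling to library size instead of size factors raised that median to 0.63 in MI against Blood. The share of higher among all calls then went from 61.2% to 82.3%.

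Within the FOS family, Fosb encodes a JUN partner with a strong activation domain. The MI libraries 13, 19 and 20 held 571, 234 and 345 normalized counts of Fosb, MI + MSC libraries 15, 17 and 18 held 424, 342 and 514, the Blood pair (21 and 22) held 70.7 and 23.4, and the Blood + MSC pair (23 and 24) held 64.4 and 28.4. All 6 heart libraries lay above all 4 blood libraries. The log2 fold change was 3.07 ± 0.51 (SE, limma adjusted p = 0.00147) in MI against Blood and 3.23 ± 0.51 (adjusted p = 0.00256) in MI + MSC against Blood + MSC, or 8.16-fold and 9.20-fold as ratios of means.

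Fos, the family's prototype, gave another picture. The MI libraries held 1378, 2291 and 2567, MI + MSC held 3169, 5182 and 2576, the Blood pair 3335 and 1267, and the Blood + MSC pair 3059.9 and 981. Heart and blood libraries overlapped, MI + MSC 17 lay above every blood library, and the log2 fold change of MI against Blood was −0.03 (95% interval −1.43 to 1.36). Fosl2, which encodes the slower FOS partner Fra-2, had 916, 1145 and 1515 for MI against 1314 and 1641 for Blood, with a log2 fold change of −0.33 (−1.34 to 0.67). With MSC, heart values of Fosl2 were 1761, 2289 and 1287 and blood values 2100.1 and 993, again overlapping.

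In the JUN family, Jund reached 412, 525 and 635 normalized counts for MI against 1908 and 1106 for Blood, a lower level in the heart with no overlap. Its log2 fold change was −1.49 ± 0.40 (limma adjusted p = 0.0160), a level 2.88-fold higher in Blood. With MSC, heart values of Jund were 832, 999 and 614 and blood values 1330.2 and 806, which overlapped, and the log2 fold change was −0.37 (−1.25 to 0.51, adjusted p = 0.558). The change in the tissue difference was 1.12 by the interaction term (adjusted p = 0.630), so the 2 comparisons of Jund were not shown to differ. The call of Jund in MI against Blood rested on Blood 21: without that library the log2 fold change was −1.10 (adjusted p = 0.104), and with the fit restricted to the compared libraries its adjusted p was 0.0699.

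Jun, the strongest activator of the family, had 378, 1193 and 1254 normalized counts for MI, 1782, 2330.3 and 1015 for MI + MSC, 989 and 496 for the Blood pair, and 1007 and 639 for the Blood + MSC pair. MI 13 was far below the other MI libraries and below every blood library. The log2 fold change was 0.24 (−1.04 to 1.52) without MSC and 1.01 (−0.27 to 2.29) with MSC, neither called. Junb, which can restrain Jun, had 1412, 3191 and 3202 for MI, 6783, 9549 and 3769 for MI + MSC, 4889 and 2572 for the Blood pair, and 4489 and 2067 for the Blood + MSC pair. Its tissue difference was −0.54 (−1.997 to 0.91) without MSC and 1.04 (−0.42 to 2.49) with MSC, and the interaction was 1.58 (adjusted p = 0.632).

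Atf3, a stress-induced member of the ATF family that represses many inflammatory genes in myeloid cells, had 210.1, 265 and 400.4 normalized counts for MI, 495, 641 and 308 for MI + MSC, 77.7 and 38.3 for the Blood pair, and 105 and 69.7 for the Blood + MSC pair. As for Fosb, the lowest heart library exceeded the highest blood library. The log2 fold changes were 2.32 ± 0.42 (limma adjusted p = 0.00239) without MSC and 2.40 ± 0.42 (adjusted p = 0.00421) with MSC. Without Blood + MSC 24 the second fell short of the threshold (2.11, adjusted p = 0.0577).

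The other 3 members belong to other families. Nr4a1, an orphan nuclear receptor that acts without a ligand, had 303, 434 and 551 normalized counts for MI, 1197, 1642 and 758 for MI + MSC, 226 and 56.5 for the Blood pair, and 587 and 94.7 for the Blood + MSC pair. Every heart library lay above the blood libraries of the same treatment, but the ratio between the 2 blood libraries of each treatment exceeded the ratio of the heart to the blood mean (3.04-fold without MSC and 3.52-fold with MSC). The log2 fold changes of 1.86 ± 0.73 (limma adjusted p = 0.0663) and 2.26 ± 0.73 (adjusted p = 0.0591) missed the threshold. Both hung on single blood libraries. The first was 2.84 (adjusted p = 0.0284) without Blood 21 and 0.88 (adjusted p = 0.440) without Blood 22, and the second was 3.56 (adjusted p = 0.0285) without Blood + MSC 23 and 0.96 (adjusted p = 0.459) without Blood + MSC 24.

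Ier2, a nuclear protein of the serum response, ran the other way. Values of 75.6, 166 and 216 normalized counts for MI stayed narrowly below those of 523 and 224 for Blood, whereas 312, 466 and 197 for MI + MSC overlapped with 485 and 253 for Blood + MSC. Its log2 fold changes were −1.28 ± 0.54 (limma adjusted p = 0.0827) and −0.19 ± 0.54 (adjusted p = 0.840), and the first was −1.89 (adjusted p = 0.0434) without Blood 22 and −0.67 (adjusted p = 0.440) without Blood 21. Egr1, the zinc finger factor of the class, had the largest SD relative to its mean in MI, MI + MSC and Blood, with 227, 211 and 664 for MI, 618, 1203 and 306 for MI + MSC, 601 and 98.1 for the Blood pair, and 291 and 180.2 for the Blood + MSC pair. Its tissue difference of 0.38 (−1.30 to 2.06) without MSC was within that spread, and with MSC it was 1.41 (−0.28 to 3.09).

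**Figure D2:**
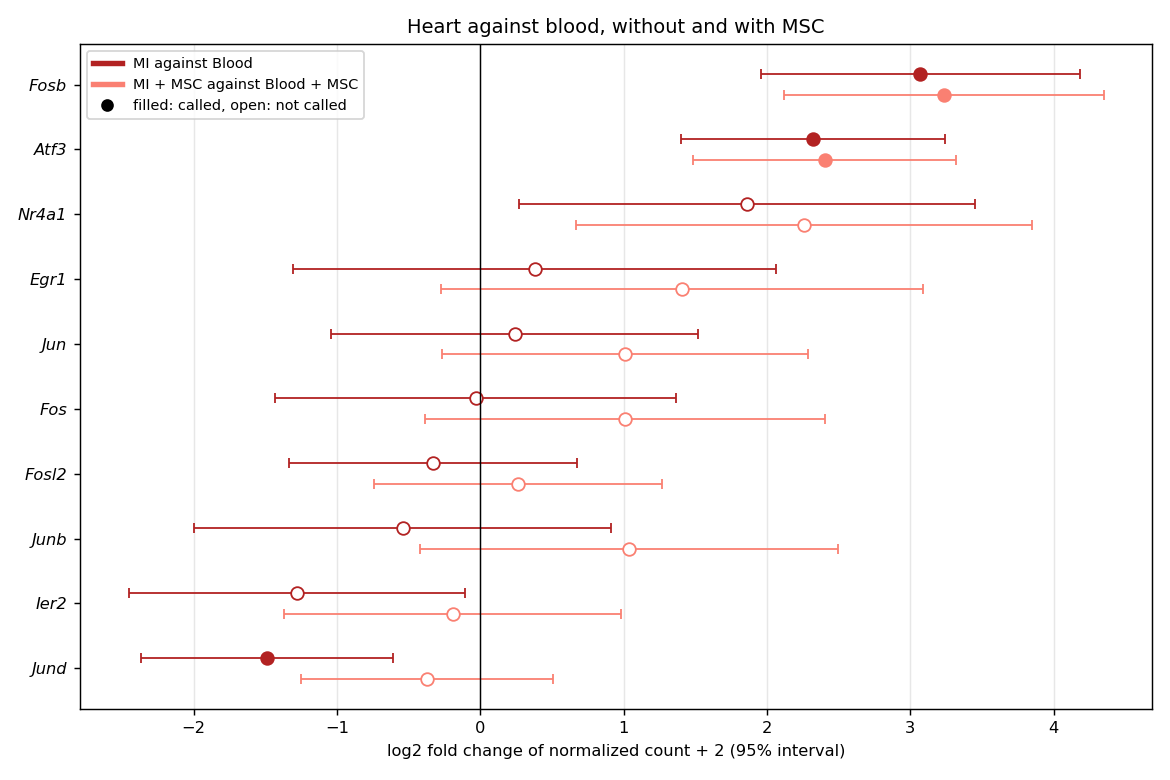
Log2 fold change of the normalized count + 2 (horizontal axis) with its 95% limma interval for each gene, in MI against Blood (dark red) and in MI + MSC against Blood + MSC (light red). Filled points were called: Fosb at 3.07 and 3.23, Atf3 at 2.32 and 2.40, and Jund at −1.49 in the first comparison alone.

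Because the members differ in direction, the make-up of each family was also described as shares of reads within a library, which no scaling between libraries can move. These shares were chosen after the values were seen and were not tested. Fosb made up 19.9%, 6.37% and 7.80% of Fos, Fosb and Fosl2 reads for MI, then 7.93%, 4.38% and 11.7% for MI + MSC, against 1.497% and 0.798% for the Blood pair and 1.23% and 1.42% for the Blood + MSC pair. The lowest heart share (4.38%, 95% Wilson interval 3.74% to 5.12%) lay above the upper bound of the highest blood share (2.73%). MI 13 stood out with 41.5 Fosb reads per 100 Fos reads, where the other heart libraries had 6.60 to 19.9 and the blood libraries 1.85 to 2.90.

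Jund made up 18.7%, 10.7% and 12.5% of Jun, Junb and Jund reads for MI, then 8.85%, 7.76% and 11.4% for MI + MSC. In blood it was 24.5% and 26.5% without MSC and 19.5% and 22.9% with MSC, above every heart library. The interval of MI 13 (14.4% to 23.9%) took in the shares of both Blood + MSC libraries, and those of the other 5 heart libraries all ended at or below 13.1%. Junb held most of the JUN reads everywhere, from 58.9% to 74.1%, and its shares in MI + MSC (72.1% ± 2.16, SD, n = 3) lay above those in MI (64.0% ± 1.06) without overlap. Intervals cover counting error only.

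**Figure D3:**
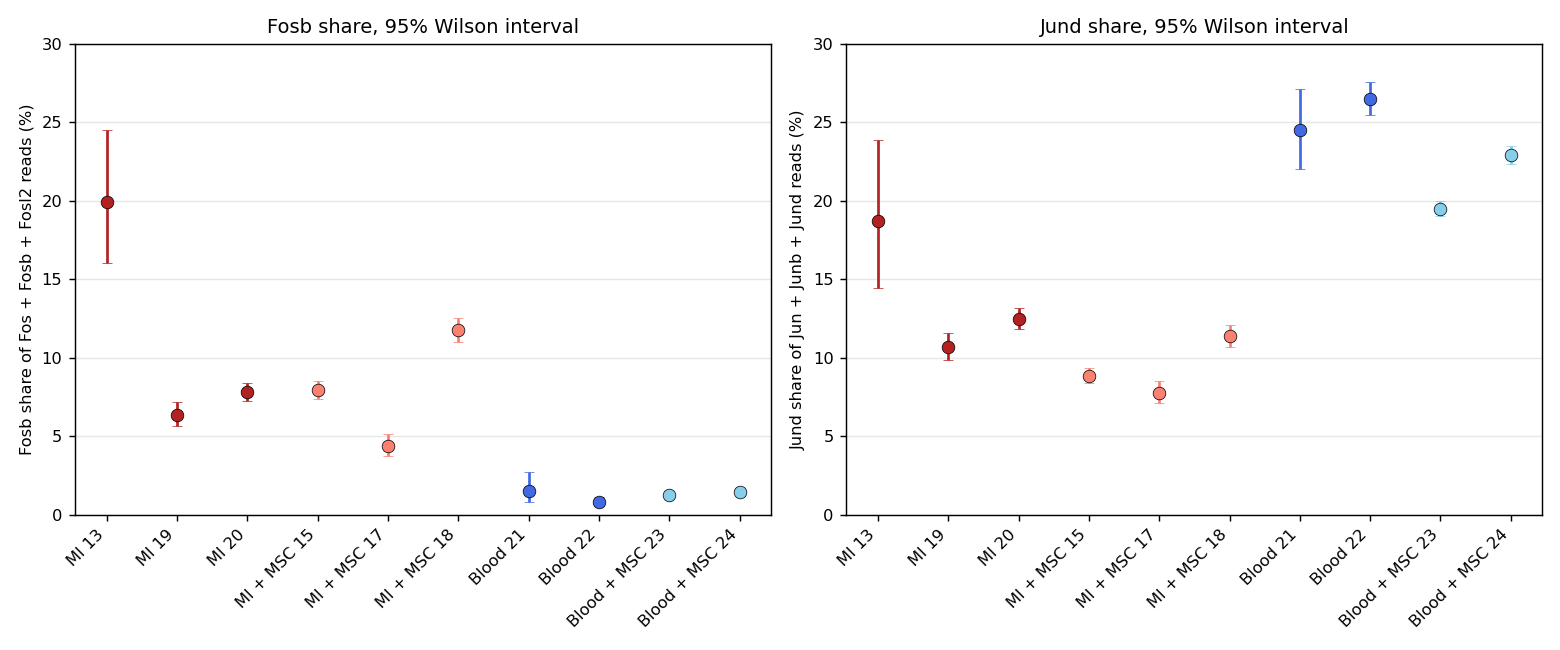
Share of Fosb among Fos, Fosb and Fosl2 reads (left) and of Jund among Jun, Junb and Jund reads (right), in percent, for each library, with 95% Wilson intervals for counting error. The Fosb share is at least 4.38% in the heart and at most 1.497% in blood, and the Jund share is at most 18.7% in the heart and at least 19.5% in blood.

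The next comparison asked whether MSC injection was accompanied by a change of these genes in cardiac cells. All 10 members had a higher mean in MI + MSC than in MI, against 48.9% of all tested genes with a positive log2 fold change, and their median was 0.87 against −0.01 for all genes. None was called: limma, edgeR, DESeq2 and limma-voom with sample quality weights each called 0 members. Over all 11549 genes limma called 0%, edgeR 0 genes, DESeq2 76 and limma-voom 261. At an unadjusted p-value under 0.05 the numbers were 3 members by limma (8.01% of all genes, or 925 genes) and 3 by edgeR (968 genes). They were 3 by DESeq2 (938 genes) and 5 by limma-voom, which placed 1788 genes there. Members are not replicates, since the same libraries carry all of them.

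Nr4a1 had the largest mean difference, as its libraries above show, with a 2.79-fold ratio of means and a log2 fold change of 1.45 (95% interval 0.03 to 2.87, limma adjusted p = 0.618). Junb followed at 1.36 (0.06 to 2.66, adjusted p = 0.618), then Ier2 at 1.12 (0.07 to 2.17, adjusted p = 0.618). The libraries of MI + MSC lay above those of MI without overlap for Fos, Junb and Nr4a1, which is 3 of 10 members against 7.05% of all tested genes, although for Fos the margin was 2576 against 2567. Jun (0.96), Egr1 (0.94), Fos (0.79), Atf3 (0.71), Jund (0.63) and Fosl2 (0.57) had lower estimates with intervals that included 0. Fosb had the smallest, 0.23 (−0.77 to 1.23), and its highest level of all was in MI 13.

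The size of this difference depended on 1 library on each side. MI + MSC 17 held the highest heart value of 9 members (17.9% of all tested genes) and MI 13, the shallowest library, held the lowest of 8 (36.8%). Without MI 13 the median over the members was 0.54, and without MI + MSC 17 it was 0.49. The neutrophil marker sum was also lowest in MI 13 (2547) and highest in MI + MSC 17 (13564) among heart libraries. Of the 12 neutrophil markers, however, 5 had a log2 fold change above 0 in MI + MSC against MI, with a median of −0.18. Ly6g was among those with a lower mean in MI + MSC (8.43 against 20.6). Markers of other cell types differed too: 0 of 8 cardiomyocyte, 8 endothelial and 5 mural markers were higher in MI + MSC, the endothelial sums being 473 to 913 in MI + MSC and 2032 to 2253 in MI and the mural sums 245 to 589 and 878 to 1059, while 8 of 10 macrophage and monocyte markers were higher (sums of 10933 to 19377 against 5009 to 15086). Of the 5 platelet markers 3 were higher, and they summed to 820 to 1747 for MI + MSC against 429 to 609 for MI. Most of these sums was Pf4 (means of 968 and 408), while Itga2b had a lower mean in MI + MSC (5.68 against 23.3). Of the 31 markers of the cardiomyocyte, endothelial, mural and macrophage lists, limma and edgeR called 0, DESeq2 5 and limma-voom 8. An unadjusted limma p-value under 0.05 was found for 17 of them, against 8.01% of all genes. The part of any of these lists in the member values was not tested.

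In blood the corresponding comparison gave no common direction. Estimates were above 0 for 5 members and below 0 for the other 5, with a median log2 fold change of 0.00 (all genes 0.11). None was called by limma (0% of all genes), edgeR, DESeq2 (179 genes in all) or limma-voom, and 0 members had an unadjusted p-value under 0.05 by any of them. Nr4a1 (1.05, interval −0.70 to 2.79) and Atf3 (0.63, −0.38 to 1.64) had the highest estimates and Jund (−0.49, −1.45 to 0.48) the lowest. The intervals were wide enough to hold a 2-fold change in at least 1 direction for every member, so the data of 2 libraries a group left changes of that size undetermined. Leaving out a library moved the member median from −0.63 (without Blood 22) to 0.67 (without Blood 21). Other markers differed in these libraries. Of 12 neutrophil markers 1 had a higher mean with MSC (median −1.64), their sums were 44788 and 53435 for the Blood pair against 23725 and 16764 for the Blood + MSC pair, and DESeq2 called 2 of them and limma 0, with 4 at an unadjusted limma p-value under 0.05. The 5 platelet markers summed to 22913 and 1027 for the Blood pair and to 658 and 558 for the Blood + MSC pair. The part of either list in the member values was not tested.

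The difference between the MSC effects in heart and blood was estimated by the interaction term. It was above 0 for all 10 members (44.8% of all genes), with a median of 0.90 (all genes −0.12), and ranged from 0.08 to 1.58. The median was 0.31 without Blood 21, 0.33 without Blood + MSC 24, 0.52 without MI + MSC 17, 0.58 without MI 13, 1.42 without Blood + MSC 23 and 1.45 without Blood 22, and the number above 0 was 6 without Blood 21, 7 without Blood + MSC 24, with edgeR and with scaling to library size, and 8 with DESeq2 and limma-voom. limma called 0 members (0% of all genes) and placed none at an unadjusted p-value under 0.05 (7.26% of all genes). DESeq2 placed 2 members there (789 genes in all), limma-voom 2 (646 genes) and edgeR 0 (815 genes). No member was called by any of them (18 genes in all by DESeq2). A difference of the MSC effect between the tissues was therefore not detectable with these libraries.

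**Figure D4:**
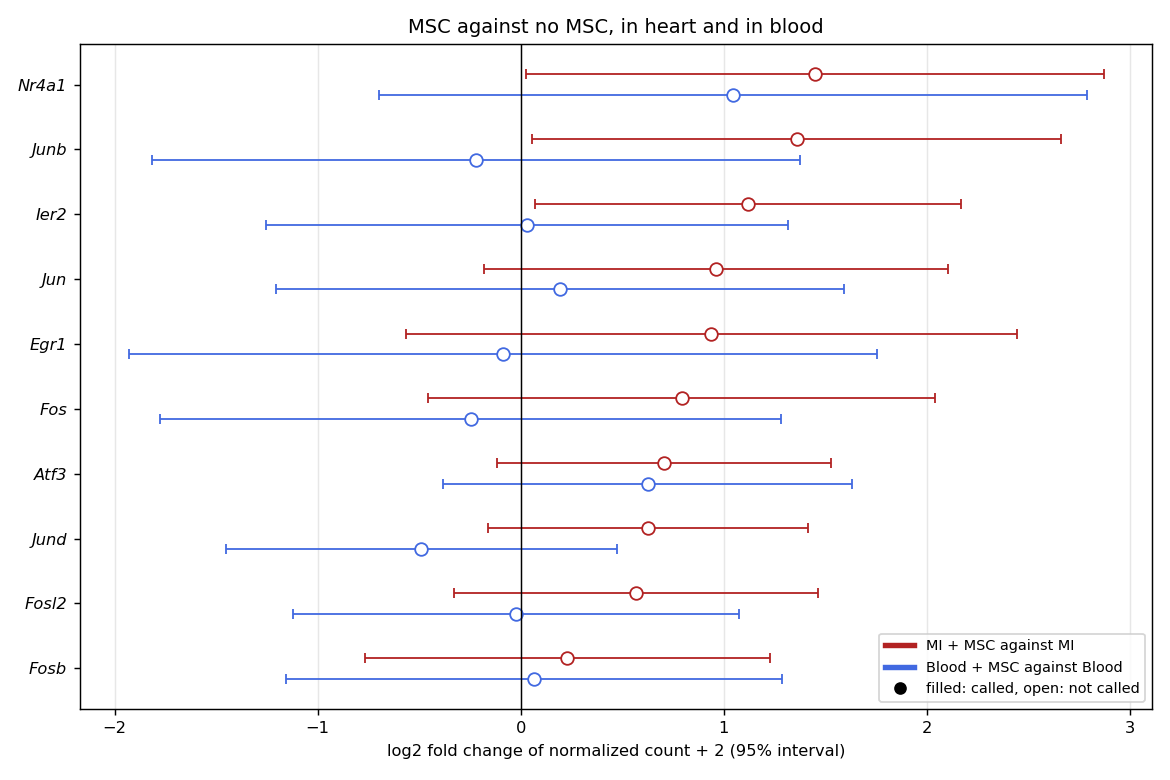
Log2 fold change of the normalized count + 2 (horizontal axis) with its 95% limma interval, for MI + MSC against MI (red) and Blood + MSC against Blood (blue). All points are open because no gene was called; the heart estimates run from 0.23 (Fosb) to 1.45 (Nr4a1) and the blood estimates from −0.49 (Jund) to 1.05 (Nr4a1).

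Libraries of the same group also differed in a shared direction. Blood 21 exceeded Blood 22 for 9 members, Fosl2 being the exception, with a median ratio of 2.18, while 37.6% of all tested genes were higher in that library. Blood + MSC 23 exceeded Blood + MSC 24 for all 10 (48.9% of all genes) with a median ratio of 2.02. In the heart, MI + MSC 17 exceeded MI + MSC 18 for 9 members with a median ratio of 2.12, and MI 20 exceeded MI 19 for 10 with a median ratio of 19 to 20 of 0.78. The spread within a group was thus of the order of the MSC differences above.

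Other genes of the pathway were taken from lists. Among relatives outside the 10 (other FOS, BATF, ATF and MAF genes), Maff (log2 fold change 2.72, limma adjusted p = 0.00453) and Atf5 (1.53, adjusted p = 0.0228) were called higher in MI than in Blood. Maff (3.93, adjusted p = 0.00148) and Mafk (1.30, adjusted p = 0.0464) were called higher in MI + MSC than in Blood + MSC. Maff and Mafk encode small MAF proteins, which lack an activation domain. Of 24 tested immediate-early genes beyond AP-1, 6 were called higher and 2 lower in MI than in Blood, near the 21.2% and 13.5% of all genes, and 7 and 1 with MSC (all genes 8.23% and 5.85%). They included Nr4a2 (4.85 without MSC and 3.73 with MSC) and Nr4a3 (2.53 and 3.18), the closest relatives of Nr4a1. The mean of Nr4a2 was 1.62 normalized counts for Blood and 8.41 for Blood + MSC, so its Blood level rested on few reads. Ccn2, the gene of a matrix-associated growth factor, had a mean of 127 normalized counts for MI against 0.325 for Blood, and of 57.9 for MI + MSC against 1.57 for Blood + MSC. Ccn1, of the same family, had means of 74.4 for MI and 1.30 for Blood, so that the blood levels of both rested on few reads.

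Of 30 tested upstream kinases and factors, 5 were called higher and 6 lower in MI than in Blood, near the 21.2% and 13.5% of all genes, and 2 and 5 with MSC, where all genes gave 8.23% and 5.85%. Mapk13, the p38 delta kinase gene, was lower in the heart (−3.83 and −2.31), and Mrtfb, a cofactor of serum response factor, was higher (3.06 and 2.06). Among 15 feedback genes of the MAP kinase cascade, 7 were called higher and 0 lower in MI than in Blood, and 8 and 0 with MSC. Spry1 and Dusp8 had means of 26.8 and 26.2 normalized counts for MI against 0 and 0.325 for Blood. The others included the phosphatase gene Dusp2 (3.53 and 4.22), which is transcribed in stimulated leukocytes, Errfi1 (2.77 without MSC), an inhibitor of epidermal growth factor receptors, and Dusp5 (2.63 with MSC), a nuclear phosphatase of ERK. For MSC, limma, edgeR and DESeq2 called 0 of the 83 tested genes of these 4 lists in either tissue, and limma-voom called 1 in the heart and 0 in blood. Of the 83, 14 in the heart (8.01% of all genes) and 5 in blood (7.34% of all genes) had an unadjusted limma p-value under 0.05. In the heart the lowest p-values were those of Csrnp1 (1.71, limma adjusted p = 0.523) and Gadd45b (1.997, limma adjusted p = 0.530), and the medians were 0.68 for the 24 immediate-early genes, 0.38 for the AP-1 relatives, 0.16 for the feedback genes and 0.12 for the upstream genes.

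Heart tissue went through enzymatic digestion at body temperature before the bead step and blood did not, so tissue and handling cannot be told apart in any heart-to-blood value. The cell type markers described above also differed between heart and blood libraries, and their part in the member values was not tested. A list of 18 heat shock and other genes known to respond to digestion had 9 called higher and 0 lower in MI than in Blood (median 1.22) and 6 and 0 with MSC (median 1.34), where 21.2% and 8.23% of all genes were called higher. Hspa1a (5.37 and 3.21) and Hspa1b (5.16 and 3.44), the inducible HSP70 genes, differed most. The list summed to 5967 to 14213 normalized counts for MI and 8365 to 12009 for MI + MSC, while the Blood pair had 5304 and 6316 and the Blood + MSC pair 4334 and 5971. Between MI + MSC and MI, 9 of the 18 genes were higher and 9 lower, with a median of 0.00, and the genes with the lowest p-values, Hspa1b (−1.81, limma adjusted p = 0.530) and Hspa1a (−1.76, adjusted p = 0.530), had lower means in MI + MSC. Of the 18, 5 had an unadjusted limma p-value under 0.05, against 8.01% of all genes. There limma-voom called 1 of them, and limma, edgeR and DESeq2 called 0. The part of digestion in the member values was not tested.

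The mean profile of the members over the 10 libraries, as centred log2 values, was lowest in Blood 22 (−1.13) and Blood + MSC 24 (−0.999) and highest in MI + MSC 17 (1.23). The tested genes outside the 10 members with the smallest root mean square difference from it were Fth1, the ferritin heavy chain gene (0.21 log2 units over 10 libraries), Gm50394 (0.26), Mafk (0.29), Tgoln1 (0.30) and Lyset (0.30). Of these, Mafk is on the list of AP-1 relatives. Fos (0.25) and Jun (0.31) were the members nearest to their own mean, and Fosb (1.30) and Jund (0.89) the farthest. This likeness is a description over libraries that differ widely in depth.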

How the data were processed

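RNA of bead-enriched Ly6G+ cells was sequenced by the study as stranded, paired-end, ribosomal RNA-depleted libraries. According to its methods and processing notes, reads were trimmed with Trimmomatic, duplicates were removed with Picard, reads were mapped with STAR to GRCm39 and counted by strand with featureCounts, and mitochondrial reads were left out. The deposited values are a signal, made by the authors by dividing read counts by DESeq2 size factors. A second deposited table, named as raw, equalled the first in all 281850 values. Dividing by the value of 1 read gave whole reads for 100% of values (tolerance 0.01 reads).

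A filter on the mean (10 normalized counts or more) kept 11549 genes, which were tested with limma (3.58.1, intensity trend) on log2(normalized count + 2). The fit held all 10 libraries in 4 groups, with Benjamini-Hochberg adjustment over the tested genes. A floor of 3 reads marked the least that could be detected. edgeR (4.0.16) and DESeq2 (1.42.0) on recovered reads, limma-voom, other scalings, pseudocounts and filters, the compared libraries alone and each library left out were alternatives. Calls needed an adjusted p-value under 0.05 and a log2 fold change of at least 0.5, and for the interaction the p-value alone. All members are named. Of the lists, the genes named are the called genes in order of fold change, up to 4 per list and comparison and in places fewer, or the 2 with the lowest p-values where none was called, and the 5 genes nearest to the members' mean profile. A result of the list of AP-1 relatives is not reported here. The members and lists were chosen with earlier results of these data known. GENCODE M39 held 27906 of the 28185 gene identifiers. Fits were tested on simulated reads in which 200 genes were changed per comparison. For MSC in the heart limma recovered 118 of these, with 4 false calls. In blood it recovered 64, with 1 false call, so changed genes could be missed. The software was R 4.3.3 and Python 3.11.15 with scipy 1.17.1, pandas 2.3.3, numpy 2.4.6 and matplotlib 3.10.9.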

Additional observations from a re-analysis of the deposited data

How the results depend on the processing

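The number of members called was 0 for MSC in the heart, in blood and for the interaction under every alternative run. The interaction was not run with only the compared libraries, since it needs all groups. In MI against Blood it was 3, with a range of 2 to 4 over all alternatives, and with a library left out 3 to 4. In MI + MSC against Blood + MSC it was 2, with 1 without Blood + MSC 24 and a range of 1 to 3 with a library left out. Fosb and its direction in the heart were called under every alternative.

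Directions turned for small differences. In Blood + MSC against Blood, scaling to library size gave 0.053 for Fos, 0.08 for Junb, 0.21 for Egr1 and 0.28 for Fosl2. Fosl2 was at 0.11 with edgeR, 0.014 with DESeq2, 0.10 with limma-voom and 0.021 with TMM. Ier2 was at −0.066 with DESeq2 and −0.16 with limma-voom, where Jun was at −0.027. In MI against Blood, scaling to library size gave 0.49 for Fos and 0.19 for Fosl2, and limma-voom −0.013 for Egr1. That scaling moved the median of all genes from 0.15 to 0.63 there, which is a property of the scaling.

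With a library left out, the MSC difference in blood ranged from −1.07 to 0.57 for Fos, −0.69 to 0.82 for Fosb, −0.56 to 0.52 for Fosl2, −0.30 to 0.69 for Jun, −0.78 to 0.34 for Junb, −1.38 to 1.21 for Egr1, −0.58 to 0.64 for Ier2 and −0.26 to 2.35 for Nr4a1. The MSC difference of Fosb in the heart ranged from −0.077 to 0.56. MI against Blood ranged from −0.73 to 0.66 for Fos, −0.26 to 0.80 for Jun and −0.92 to 1.67 for Egr1, and MI + MSC against Blood + MSC from −0.28 to 0.80 for Fosl2 and −0.66 to 0.27 for Ier2. With 2 blood libraries a group, 1 library left out leaves a lone library assumed to vary like the other groups, and the cause of the other changes was not tested. No paired analysis was possible because the labels give no library number shared between groups. Depth limited Ier2 in MI 13 and Fosb in Blood 21 most.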
